A study of Homo sapiens with 19 samples.

Results

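Expression of 10 genes of caveolae, of receptor signalling and of the actin cytoskeleton was described across 10 established human colon cancer cell lines. The genes are CAV1, CAV2, AXL, TAGLN, CALD1, TGFB1I1, MSN, ANXA1, TPM1 and TPM2. All probe sets that the platform annotation assigns to exactly 1 of these genes were taken, which gave 36 probe sets, and the 10 genes stand among 19775 genes with such a probe set. The study holds 19 Affymetrix arrays. The labels place RKO, SW48, HCT116, LIM2405 and LS174T in the microsatellite unstable group (MSI) and HT29, T84, CACO2, SKCO1 and HCC2998 in the microsatellite stable group (MSS). All lines were untreated and were grown in DMEM with fetal bovine serum to exponential phase. Each line was arrayed as 2 cultures, except T84 with 1 culture. The lines of a group are not clones of each other, and the line is the replicate.

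Caveolae are flask-shaped pits of the plasma membrane built from caveolins and held in shape by cavins. AXL is a receptor tyrosine kinase that binds GAS6 and is known as a marker of invasive, mesenchymal-like carcinoma cells. Tropomyosins, caldesmon and transgelin bind actin filaments and are abundant in smooth muscle. Hic-5 (the product of TGFB1I1) sits at focal adhesions, moesin links actin to the membrane, and annexin A1 is a calcium-dependent binder of phospholipids. Many genes of this kind are known targets of the serum response factor SRF and of YAP with TEAD factors.

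Promoters are shown for 4 of the genes. CAV1 and CAV2 lie 16.468 kb apart on chromosome 7 and followed each other over the lines. TGFB1I1 and AXL hold a searched motif. CALD1 also holds searched motifs, but its promoters are not printed. The sequences are from RefSeq on GRCh38.p14, run from 250 bases before to 50 after a transcript start, and are all on the plus strand. A promoter entry was found for 9 of the 10 genes, and TAGLN is named only. The 1st CAV1 start lies in chr7:116524759-116525058, the 1st CAV2 start in chr7:116499488-116499787, the 2nd AXL start in chr19:41226505-41226804 and the 3rd TGFB1I1 start in chr16:31472955-31473254. Capitals mark a motif.
CAV1: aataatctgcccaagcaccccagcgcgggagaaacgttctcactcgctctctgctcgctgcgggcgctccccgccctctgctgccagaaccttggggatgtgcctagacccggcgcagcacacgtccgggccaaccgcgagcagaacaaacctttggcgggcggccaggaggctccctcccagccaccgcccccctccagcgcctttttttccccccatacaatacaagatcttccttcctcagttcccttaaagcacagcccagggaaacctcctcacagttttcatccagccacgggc
CAV2: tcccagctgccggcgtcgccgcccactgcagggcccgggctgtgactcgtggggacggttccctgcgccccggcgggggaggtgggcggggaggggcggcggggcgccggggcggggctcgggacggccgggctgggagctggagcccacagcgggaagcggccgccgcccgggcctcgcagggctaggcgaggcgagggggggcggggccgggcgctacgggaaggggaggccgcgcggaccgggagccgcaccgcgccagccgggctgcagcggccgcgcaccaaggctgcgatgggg
AXL: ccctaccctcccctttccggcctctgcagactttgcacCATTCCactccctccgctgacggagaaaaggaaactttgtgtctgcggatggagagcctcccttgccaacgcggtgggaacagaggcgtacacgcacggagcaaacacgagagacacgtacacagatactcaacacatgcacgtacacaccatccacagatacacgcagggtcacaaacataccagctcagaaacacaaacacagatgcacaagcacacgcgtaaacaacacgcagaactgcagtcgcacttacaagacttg
TGFB1I1: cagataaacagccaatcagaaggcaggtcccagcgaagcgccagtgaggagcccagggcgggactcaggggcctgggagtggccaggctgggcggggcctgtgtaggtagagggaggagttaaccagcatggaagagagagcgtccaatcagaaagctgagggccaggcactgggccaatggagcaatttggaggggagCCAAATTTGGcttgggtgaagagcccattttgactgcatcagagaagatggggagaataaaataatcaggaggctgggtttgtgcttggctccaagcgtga

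Both strands of 20 starts of these genes were searched for the CArG box bound by SRF, for GGAATG, a TEAD-type motif, and for TGANTCA, an AP-1-type motif. A CArG box was present at 1 start, the 3rd of TGFB1I1, at position -51 from the start. Of 35116 human promoters of this length, 1.29% held one. GGAATG was present at -212 of the 2nd AXL start, where it reads CATTCC on the plus strand, and at the 2nd and 3rd of 4 CALD1 starts. It was present in 14.03% of all promoters. TGANTCA was present at the 1st CALD1 start and in 7.71% of all promoters. None of the marked motifs overlapped another. A match describes letters in this window, and no match says nothing about the factor. The 2 printed caveolin promoters held none of the 3 motifs and were rich in G and C, at 62.3% for CAV1 and 82.7% for CAV2.

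Values are log2 RMA expression per probe set. Their median over all probe sets and arrays was 5.67 log2, a point of reference for a dim signal, since no detection call is used here. Each gene is given on its probe set with the highest mean over lines unless another is named. A line value is the mean of its cultures. In the order of the lines, neighbours were taken to differ beyond their spread where their cultures did not overlap and their gap exceeded 2 residual SDs between duplicate cultures of that gene. In bulk RNA of a culture, fewer cells with a transcript and less of it per cell cannot be told apart.

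Over all probe sets, cultures of HT29 correlated least (r = 0.978) and those of HCT116 most (r = 0.996), and no duplicate was identical. The epithelial label was checked with 10 markers. Their mean level was 11.06 to 12.76 log2 in MSS lines and 6.46 to 12.42 in MSI lines. RKO was lowest, with 5 of the 10 markers over the median of all values and CDH1 (E-cadherin) at 3.95. HCT116 and LIM2405 had 7 of 10 over it. Mean levels of fibroblast markers lay between 5.09 and 5.49, of smooth muscle markers between 5.57 and 5.90 and of endothelial markers between 4.90 and 5.23 in every line. None of the 6 endothelial markers, 3 of the 10 fibroblast markers and 1 of the 8 smooth muscle markers (ACTA2) differed between lines. Over all genes 67.0% did. Leukocyte markers lay between 5.14 and 7.44, highest in HT29, where LYZ reached 13.29. The part of marker differences in the results below was not tested. For AXL, TGFB1I1 and CALD1 the difference by status is also given without RKO. Differences of genes other than the 10 genes described were not refitted without it.

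The first comparison was between lines. All 10 genes passed the limma F test between the 10 lines (adjusted p under 0.05, against the spread between duplicate cultures), where 67.0% of all genes did. Within the 5 MSI lines 10 of 10 differed against 58.0% of all genes, and within the 5 MSS lines 9 of 10 against 52.9%. The exception was TAGLN on its brightest set (adjusted p = 0.167 in MSS lines, limma). The other 2 TAGLN sets did differ within MSS lines (limma adjusted p over probe sets = 0.0050 and 0.0060). Of the 36 probe sets, 31 differed between lines, against 60.2% of all probe sets. An SD between lines of at least 1 log2 was reached by 8 of the 10 genes and by 13.4% of all genes. The 2 others were TAGLN and CALD1. The median range from the lowest to the highest line was 6.11 log2 for the 10 genes and 1.32 log2 for all genes. The 10 genes were chosen with earlier results of these data known. The choice itself may therefore have set part of these contrasts with all genes. These p-values measure only the spread between cultures of a line.

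**Figure D1:**
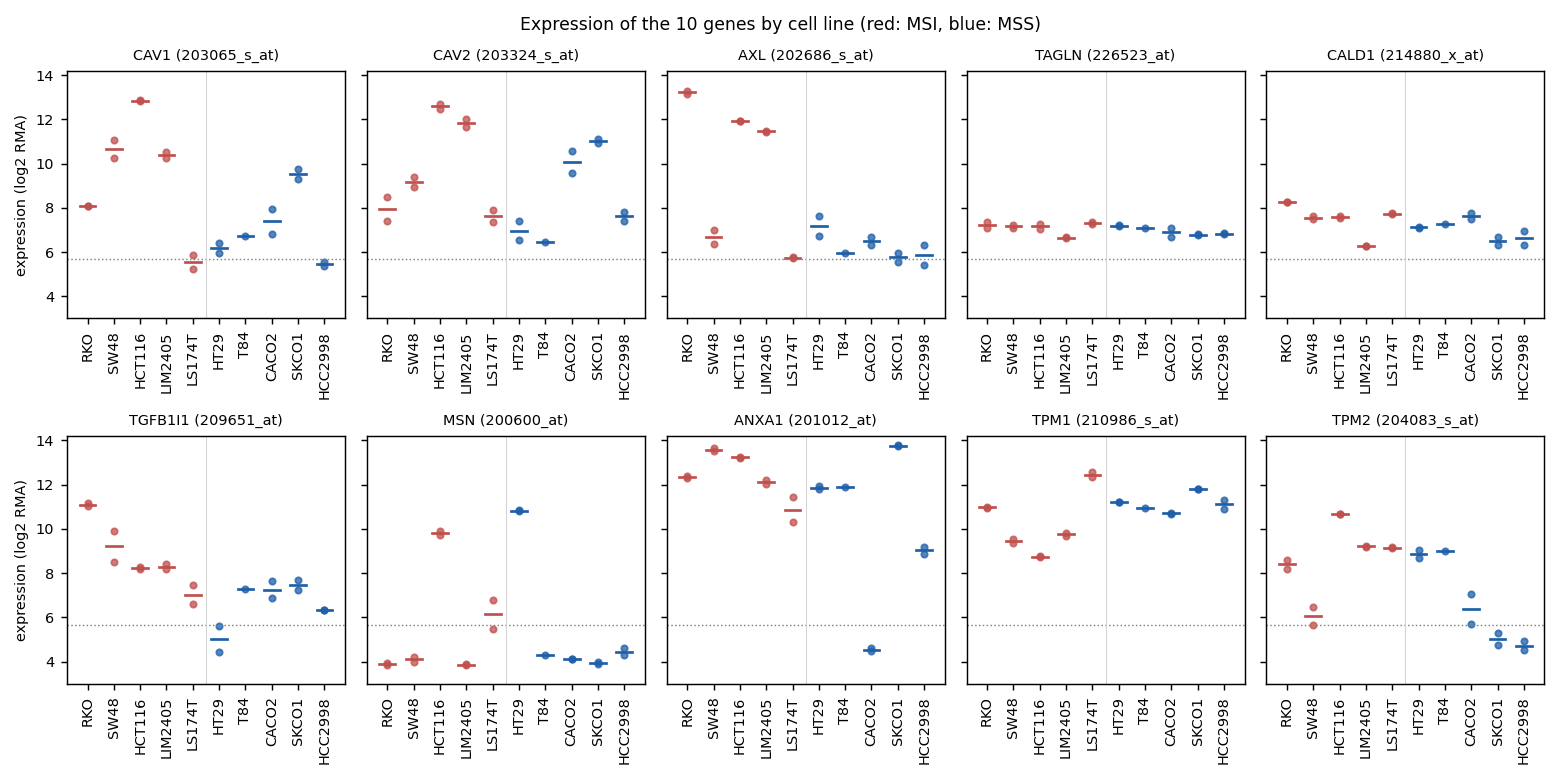
Each panel shows 1 gene on its brightest probe set (in brackets), with the log2 RMA value of every culture as a point and the line mean as a bar, for 5 MSI lines in red and 5 MSS lines in blue; the dotted line is the median of all values, 5.67. AXL is high in 3 MSI lines, MSN is high in HCT116 and HT29, ANXA1 is low in CACO2, and TAGLN is nearly level.

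The caveolin genes had a wide and graded range. CAV1, the main structural protein of caveolae, was at 8.07 log2 in RKO, 10.65 in SW48, 12.84 in HCT116, 10.39 in LIM2405 and 5.56 in LS174T among MSI lines. Among MSS lines it was at 6.17 in HT29, 6.74 in T84, 7.39 in CACO2, 9.53 in SKCO1 and 5.48 in HCC2998. HCT116 was highest and HCC2998 lowest, 7.36 log2 apart, and both groups held high and low lines. HCT116, the pair SW48 and LIM2405, and SKCO1 each stood beyond their spread from the next lower line. From RKO down to HCC2998, no neighbours did. The other CAV1 probe set ran in parallel (r = 0.975 over 10 lines), from 13.13 in HCT116 to 3.92 in HCC2998. It separated the lower lines further, with RKO over CACO2 by 1.46 log2 and T84 over HT29 by 2.56 log2, both beyond their spread.

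CAV2, which joins CAV1 in hetero-oligomers, was at 7.95 log2 in RKO, 9.15 in SW48, 12.60 in HCT116, 11.84 in LIM2405 and 7.64 in LS174T. The MSS lines were at 6.97 in HT29, 6.43 in T84, 10.07 in CACO2, 11.02 in SKCO1 and 7.61 in HCC2998. HCT116 was again the highest line, and the highest was 71.7-fold over the lowest, T84. On its brightest set CAV2 stood over the median of all values in all 10 lines, and CAV1 in 8. On the set with the largest interquartile range, CAV2 did so in 8 lines and CAV1 in 7. HCT116, LIM2405 and SKCO1 were neighbours within their spread, as were RKO, LS174T, HCC2998, HT29 and T84. On a second bright set (r = 0.95 with the first), HCT116 stood 2.32 log2 above LIM2405, beyond its spread, and CACO2 (9.73) came before SKCO1 (9.40). The remaining CAV2 probe set was dim and moved by only 0.84 log2, with HCT116 again highest at 5.89.

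CAV1 and CAV2 ran together over the lines (Pearson's r = 0.84, Spearman's rho = 0.79, n = 10 lines). Without the 2 lines farthest from the median CAV1 level, r was 0.85. The points are line means from shared arrays, and r is a description. CAVIN1, the cavin that coats caveolae, followed CAV1 less closely (r = 0.66, rho = 0.71). It was highest in HCT116 (10.84) and lowest in LS174T (6.52), which was also low in CAV1. RKO and CACO2 came right after HCT116 for CAVIN1 (10.66 and 10.10) but stood in the middle of the order for CAV1 (8.07 and 7.39). CAVIN3 ran from 4.66 in HCC2998 to 8.58 in LIM2405 (r = 0.61 with CAV1). CAVIN2 stayed between 3.69 and 4.37 and CAV3, the muscle caveolin, between 6.57 and 7.08. Of the 9 genes of the caveolar coat, 7 differed between lines (67.0% of all genes did).

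Among 2636 other genes with an SD of at least 1 log2 over lines, those most like CAV1 were SYT17 (r = 0.90), AKAP12 (r = 0.89) and TANC2 (r = 0.86). Those most like CAV2 were SYT17 (r = 0.90), MALT1 (r = 0.90) and WWTR1 (r = 0.86). WWTR1, which encodes the YAP paralogue TAZ, was at 11.86 in LIM2405, 11.09 in CACO2, 10.66 in HCT116 and 10.12 in SKCO1, which were also the 4 highest CAV2 lines. RKO was next at 8.12.

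AXL split the lines into a high and a low set. It was at 13.22 log2 in RKO, 11.92 in HCT116 and 11.45 in LIM2405, and at 6.69 in SW48 and 5.74 in LS174T. The MSS values were 7.17 in HT29, 5.93 in T84, 6.51 in CACO2, 5.77 in SKCO1 and 5.85 in HCC2998. A gap of 4.28 log2 separated LIM2405 from HT29, the next line down. The 3 high lines are all MSI. Of the remaining 2 MSI lines, SW48 lay within the range of the MSS lines. LS174T was the lowest of all lines, 0.03 log2 under SKCO1, a gap within their spread. RKO stood beyond its spread above HCT116, while no neighbours among the 7 low lines differed beyond theirs. On the second AXL probe set only RKO stood far apart, at 10.32, with HCT116 at 7.49, LIM2405 at 7.38 and the other 7 lines at 6.43 to 6.84.

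Of 6 genes of the receptor family and its ligands, 5 differed between lines (67.0% of all genes did). TYRO3 was highest in CACO2 (9.87) and at 9.30 in RKO, and MERTK was highest in CACO2 (10.37), then LIM2405 (9.38). GAS6, the ligand, ran from 7.87 in HT29 to 10.14 in RKO and 10.17 in HCC2998. PROS1 (protein S, another ligand) was at 4.01 to 4.59 in SKCO1, SW48 and T84 and at 7.19 to 10.55 in the other 7 lines, with CACO2 highest and RKO next at 10.10. The EMT regulator ZEB1 was at 9.57 in RKO and 7.10 in LIM2405, and at 4.57 or lower in the other 8 lines, HCT116 included. VIM (vimentin) was highest in LIM2405 at 10.69, was at 7.24 in RKO, and was at most 6.39 in the others, in HCT116. CDH1 was at 3.95 in RKO and 11.94 or higher in all other lines. Over the 10 lines AXL ran with ZEB1 (r = 0.85, rho = 0.77) and VIM (r = 0.62, rho = 0.67). It ran against CDH1 (r = -0.71, rho = -0.76). HCT116, with high AXL, was close to the highest low-AXL lines for ZEB1 (SW48 at 4.41) and VIM (CACO2 at 6.35). TWIST1, of the same list, was highest in HCT116, at 6.65, and at most 4.49 (T84) in the other 9 lines. The genes most like AXL were PIK3CD (r = 0.99, rho = 0.84), PRAME (r = 0.98, rho = 0.77) and HRK (r = 0.98, rho = 0.89). How far these r values rest on the lines with high AXL was not tested.

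TGFB1I1 was graded. It was at 11.09 log2 in RKO, 9.21 in SW48, 8.22 in HCT116, 8.30 in LIM2405 and 7.02 in LS174T. In MSS lines it was at 5.04 in HT29, 7.29 in T84, 7.26 in CACO2, 7.45 in SKCO1 and 6.32 in HCC2998. The 4 highest lines were MSI, and LS174T lay among the MSS lines. RKO stood above and HT29 below all others beyond their spread, and the 8 lines between were not separated from their neighbours. The cultures of SW48 (8.51 and 9.91) differed by 1.40 log2, the widest duplicate gap of this gene, which has 1 probe set.

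Of all 2636 genes searched, CCN1 followed TGFB1I1 most closely (r = 0.94, rho = 0.88, n = 10 lines). CCN1 encodes the matricellular protein CYR61, a known target of both SRF and YAP. It was at 13.12 in RKO, 11.18 in SW48 and 10.78 in HCT116, and at 7.18 in both HT29 and HCC2998. GPSM1 (r = 0.90) and BATF3 (r = 0.89) came next. Among other genes of focal adhesions, PXN (paxillin) ran from 8.40 to 10.52, with SW48 lowest. Of 10 genes of the paxillin family and of focal adhesions, 7 differed between lines, near the share of all genes. FERMT2 (kindlin-2) was at 9.66 in HCT116 and 9.04 in CACO2 and between 3.82 and 5.22 in the others.

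**Figure D2:**
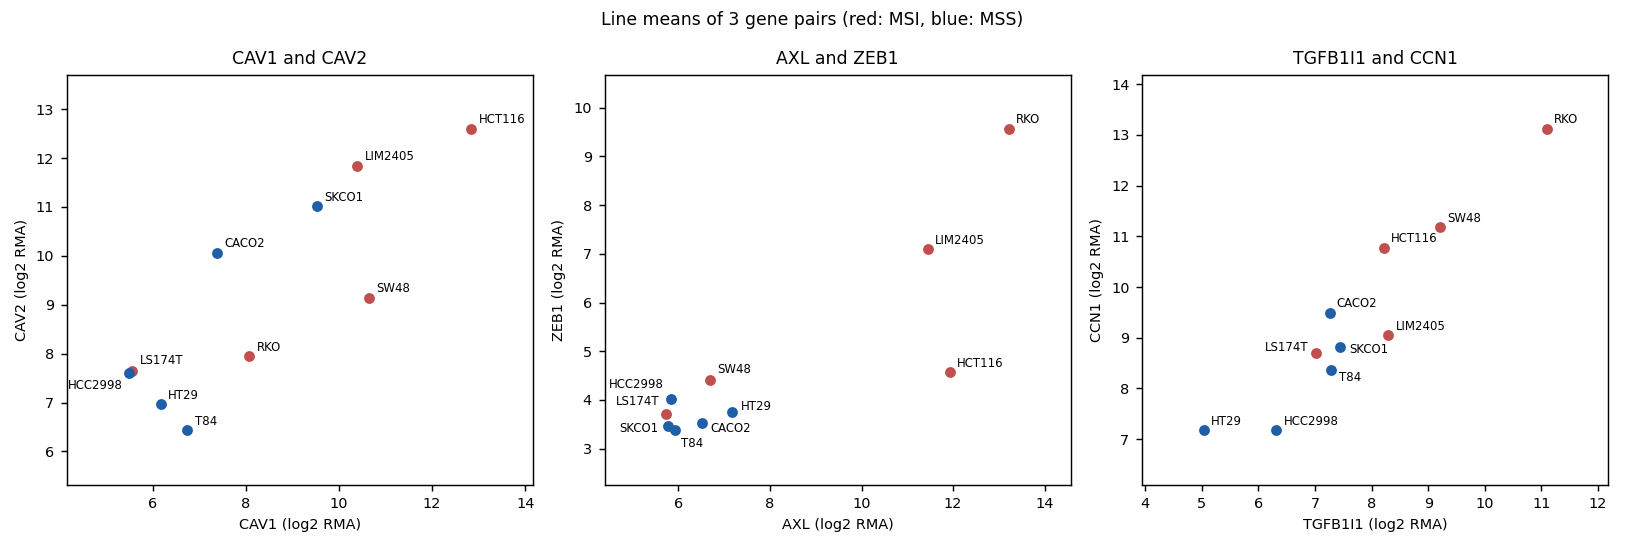
Each point is a line mean in log2 RMA (MSI red, MSS blue), with the first gene of a pair on the x axis and the second on the y axis. CAV1 and CAV2 and likewise TGFB1I1 and CCN1 form graded bands. AXL and ZEB1 run together (r = 0.85), but HCT116 has high AXL (11.92) at low ZEB1 (4.57).

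The range of caldesmon over lines depended on the probe set. CALD1 has 11 probe sets here, of which 9 differed between lines, against 60.2% of all probe sets. The brightest, 214880_x_at, ran only from 6.28 in LIM2405 to 8.26 in RKO. The suffix x marks probes that may match other transcripts. On 212077_at, the set with the largest interquartile range, singled out after its values were seen, CALD1 was at 10.54 in RKO, 9.61 in SW48, 11.43 in HCT116 and 11.10 in LS174T. The fifth MSI line, LIM2405, was at 3.82. In MSS lines it was at 11.43 in CACO2, and at 3.65 in HT29, 3.40 in T84, 3.54 in SKCO1 and 3.53 in HCC2998.

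A gap of 5.79 log2 thus separated 5 lines with high CALD1 from 5 with low, and each status held lines of both kinds. All 5 low lines lay under the median of all values, so no fold is given against them. The sets 201616_s_at and 201617_x_at placed the same 5 lines above the other 5. So did the brightest set, 214880_x_at, with SW48 at 7.55 over T84 at 7.25, a gap within their spread. It followed 212077_at over the lines (r = 0.82). On 201617_x_at the high lines lay at 6.43 to 9.14 and the low lines at 3.37 to 3.52. Which CALD1 transcripts each set reads was not examined. The genes most like the brightest set were ZNF329 (r = 0.84), DUSP1 (r = 0.83) and FAH (r = 0.77).

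**Figure D3:**
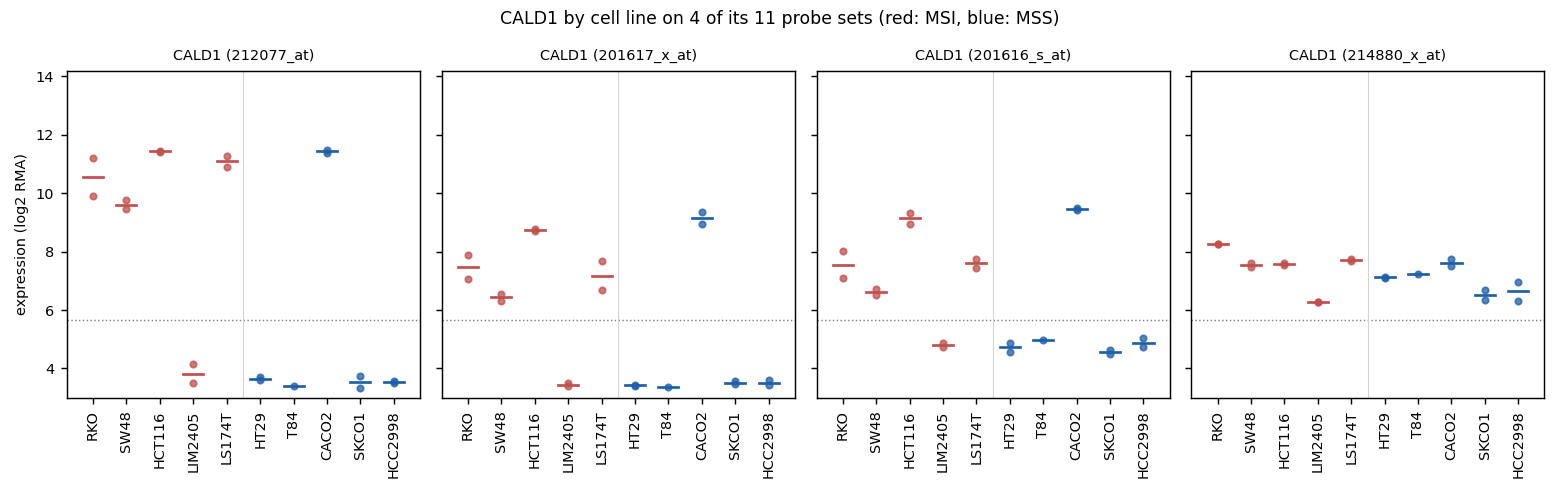
CALD1 is shown on 4 of its 11 probe sets as log2 RMA per culture (points) and line mean (bars), MSI red and MSS blue, with the median of all values dotted. On the first 3 sets RKO, SW48, HCT116, LS174T and CACO2 stand above the other 5 lines. On 214880_x_at these lines are also the highest, but all lines lie between 6.28 and 8.26.

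TAGLN (transgelin), a smooth muscle marker, hardly varied on its brightest probe set. That set lay between 6.66 in LIM2405 and 7.31 in LS174T, and none of its 9 neighbouring pairs of lines differed beyond their spread. The other 2 sets moved by 1.44 and 1.66 log2, with CACO2 highest and LS174T lowest. They followed each other (r = 0.87) and did not follow the first (r = -0.03 and 0.10). TAGLN and the brightest CALD1 set ran in parallel (r = 0.82, rho = 0.78, n = 10 lines), and without the 2 lines farthest from the median TAGLN level r was 0.60. With 212077_at in place of that set, r was 0.55. TLR3 (r = 0.89), BBLN (r = 0.84) and FAM131A (r = 0.82) were most like TAGLN.

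The tropomyosins had unlike patterns. TPM1 was at 10.97 log2 in RKO, 9.45 in SW48, 8.74 in HCT116, 9.75 in LIM2405 and 12.45 in LS174T. MSS lines were at 11.21 in HT29, 10.96 in T84, 10.70 in CACO2, 11.79 in SKCO1 and 11.12 in HCC2998. The MSI lines held both extremes, and all MSS lines lay between them. With duplicates close together, 6 of 9 neighbouring pairs differed beyond their spread. LS174T was highest and HCT116 lowest on the 3 brightest sets. Over lines TPM1 ran against CAV1 (r = -0.81, rho = -0.73), and without the 2 lines farthest from the median CAV1 level r was -0.52. The genes most like TPM1 were ABHD2 (r = 0.89), PELI1 (r = 0.85) and TBX3 (r = 0.83).

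TPM2 was at 8.39 log2 in RKO, 6.07 in SW48, 10.67 in HCT116, 9.22 in LIM2405 and 9.15 in LS174T. Of the MSS lines, HT29 was at 8.87, T84 at 9.004, CACO2 at 6.39, SKCO1 at 5.02 and HCC2998 at 4.72. HCT116, the lowest line for TPM1, was the highest for TPM2. A gap of 2.002 log2 separated 6 lines at 8.39 and above from 4 lines at 6.39 and below, and both statuses occurred on each side. The other 3 sets moved by 0.66 to 1.44 log2, with RKO highest. Most like TPM2 were ARHGAP29 (r = 0.85), FAM110C (r = 0.85) and RNF217 (r = 0.82). TPM4, a broadly expressed tropomyosin, ran from 8.01 in LIM2405 to 9.77 in RKO.

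Moesin was high in few lines. MSN was at 10.82 log2 in HT29, 9.83 in HCT116 and 6.14 in LS174T, whose cultures read 5.48 and 6.80. In the MSI lines RKO, SW48 and LIM2405 it was at 3.88, 4.11 and 3.86. In the MSS lines T84, CACO2, SKCO1 and HCC2998 it was at 4.28, 4.12, 3.94 and 4.44. The 7 low lines lay under the median of all values, and no neighbours among them differed beyond their spread. LS174T stood 1.70 log2 over HCC2998, beyond its spread. The second MSN probe set lay under the median of all values in every line.

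Ezrin (EZR), the main such linker of intestinal epithelium, was at 11.07 to 13.15 in all lines, lowest in HT29 and highest in HCT116. Radixin (RDX) was at 12.40 in CACO2, 11.37 in HCT116, 6.78 in LS174T, 4.29 in RKO and 3.89 in LIM2405, and at 8.54 to 9.71 in the other 5 lines. RKO and LIM2405 were therefore dim for both moesin and radixin. All 8 genes of this group and its partners differed between lines (67.0% of all genes did). The genes most like MSN were SNCG (r = 0.94), GALNT14 (r = 0.93) and LAT2 (r = 0.92), with rho from 0.31 to 0.68. How far these r values rest on HT29 and HCT116 was not tested.

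Annexin A1 was abundant in all lines but 1. ANXA1 was at 12.35 log2 in RKO, 13.58 in SW48, 13.23 in HCT116, 12.14 in LIM2405 and 10.87 in LS174T. In MSS lines it was at 11.86 in HT29, 11.89 in T84, 4.52 in CACO2, 13.77 in SKCO1 and 9.03 in HCC2998. CACO2 lay 4.51 log2 under HCC2998 and was the only line under the median of all values. Both CACO2 cultures were low, at 4.46 and 4.59. The other ANXA1 set was also lowest in CACO2, at 4.17, and highest in SKCO1, at 8.80.

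ANXA2 and ANXA3 were not low in CACO2, at 13.50 and 11.61. ANXA3 was instead low in RKO, at 3.47, and at 10.84 or higher in the other 9 lines. S100A10, a partner of ANXA2, was highest in CACO2 (14.11) and lowest in RKO (9.42), and S100A6 was lowest in CACO2 (11.38). Of 14 annexins, partners and receptors, 12 differed between lines (67.0% of all genes did). FPR1 and FPR2, receptors of annexin A1, did not, and stayed between 5.07 and 5.87. The genes most like ANXA1 were DUSP6 (r = 0.95), NFIB (r = 0.91) and GSTO2 (r = 0.90), all lowest in CACO2 as well.

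No single line carried all of these genes. The highest lines were HCT116 for CAV1, CAV2 and TPM2, RKO for AXL, CALD1 and TGFB1I1, LS174T for TAGLN and TPM1, HT29 for MSN and SKCO1 for ANXA1. That is 8 genes highest in an MSI line and 2 in an MSS line. On the probe sets with the largest interquartile range it is 6 and 4, since TAGLN and CALD1 are then highest in CACO2. LIM2405 was lowest for TAGLN, CALD1 and MSN yet among the 3 highest for CAV1, CAV2, AXL, TGFB1I1 and TPM2. SW48 was neither highest nor lowest for any gene. Of 90 neighbouring pairs of lines over the 10 genes, 28 differed beyond their spread. The 45 pairs of genes had a median r of 0.14 over lines, and 2 pairs exceeded 0.7.

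**Figure D4:**
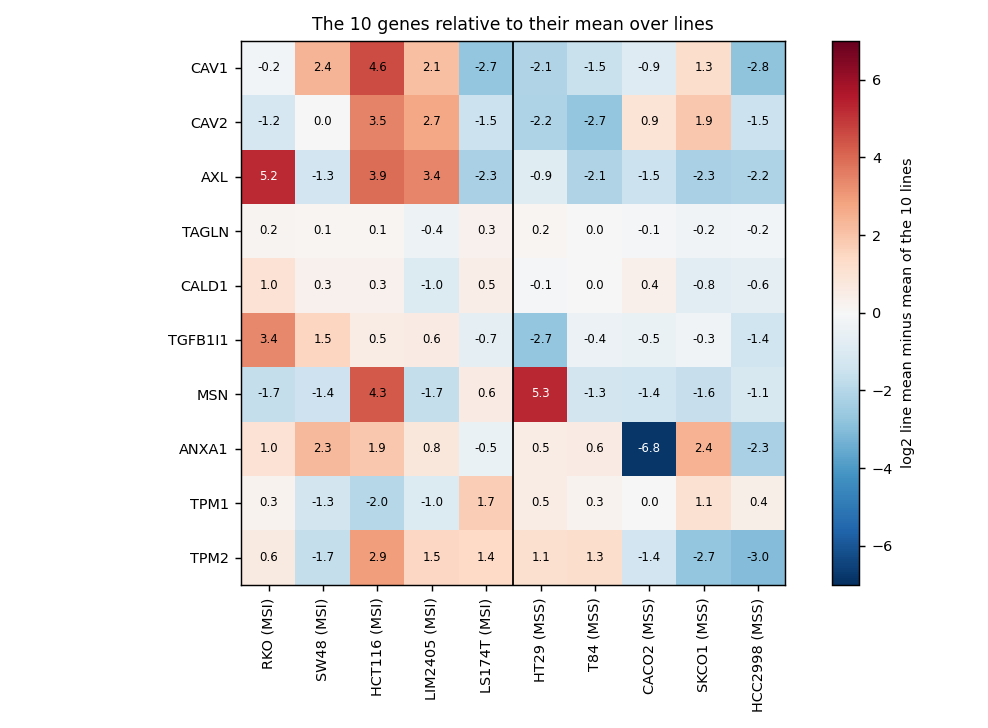
Each cell gives the log2 line mean of a gene (rows) minus its mean over the 10 lines, for MSI lines left and MSS lines right of the black line. HCT116 and RKO hold most of the highest values, and no line is high in all rows.

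The study's own comparison is MSI against MSS. None of the 10 genes passed it (limma on 5 against 5 line values, adjusted p under 0.05), and over all genes 0.0455% did. At an unadjusted p under 0.05 there were 2, AXL and TGFB1I1, where 9.77% of all genes reached that. The groups did not separate fully for any of the 10 genes, and did for 2.59% of all genes. Of the 36 probe sets none passed (limma), against 0.189% of all probe sets, and 2 had an unadjusted p under 0.05. The equal-variance test on the same line values also called none of the 10 genes. The difference was above 0 for 9 genes and below 0 for TPM1, and 64.3% of all genes were above 0. The median was 1.66 log2 for the 10 genes and 0.07 for all genes. Since the 10 genes were chosen with earlier results of these data known, this contrast may partly reflect the choice.

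AXL had the widest difference of the 10 on the brightest sets, 3.56 log2 ± 1.41 (SE), from 9.80 ± 3.36 in MSI to 6.24 ± 0.59 in MSS lines (SD, n = 5 each). Its adjusted p was 0.449 (limma), and without RKO the difference was 2.70. On the second AXL set it was 1.18. TGFB1I1 was at 8.77 ± 1.51 against 6.67 ± 1.02, a difference of 2.10 ± 0.76 (limma adjusted p = 0.400) that was 1.52 without RKO. CAV1 differed by 2.44 ± 1.32 (limma adjusted p = 0.589) and CAV2 by 1.42 ± 1.25 (limma adjusted p = 0.721). Without HCT116 these differences were 1.60 and 0.73. For ANXA1 the difference was 2.22 ± 1.55 (limma adjusted p = 0.667), and it was 0.80 without CACO2.

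TPM2 differed by 1.90 ± 1.10 (limma adjusted p = 0.612) and TPM1 by -0.89 ± 0.63 (limma adjusted p = 0.670). TPM1 was at -0.50 without HCT116 and -1.43 without LS174T. On the mean of all probe sets of a gene, TPM2 differed by 0.68, TPM1 by -0.41, CAV2 by 0.90, ANXA1 by 1.30 and AXL by 2.37. TPM1 had an SD of 1.46 between MSI lines and of 0.40 between MSS lines. CALD1 differed by 0.45 ± 0.36 on the brightest set (limma adjusted p = 0.7001), 0.26 without RKO, and by 4.19 ± 1.95 on 212077_at (limma adjusted p = 0.506). TAGLN differed by 0.15 ± 0.14 (limma adjusted p = 0.731), and on its other 2 sets the sign was negative. MSN differed by 0.04 ± 1.62 (limma adjusted p = 0.995), with 1 high line of each status. Status took from 0.034% (MSN) to 43.7% (TGFB1I1) of the sum of squares of the 19 arrays, and lines of the same status from 51.5% to 99.2%, a description that is not divided by degrees of freedom. A p that misses the threshold does not show that the groups were alike.

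**Figure D5:**
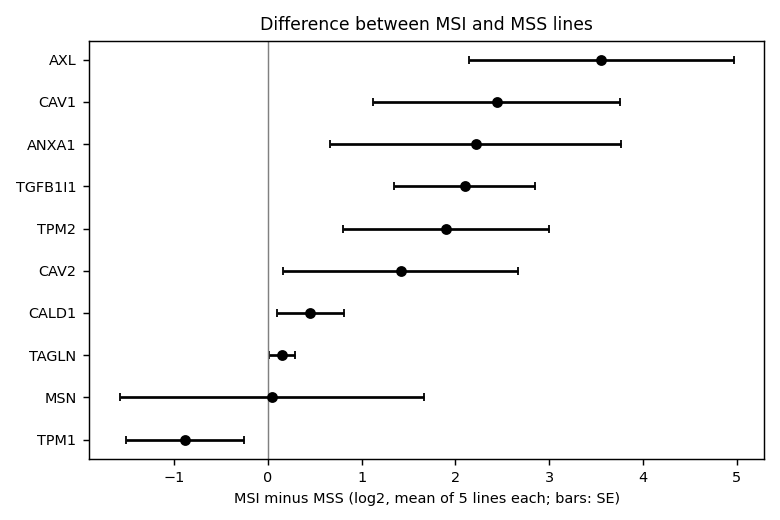
Points are the MSI minus MSS difference of each gene in log2 (mean of 5 lines each) and bars its SE. AXL lies at 3.56, TPM1 at -0.89, and none of the 10 passed the limma test.

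None of the genes in the lists around these 10 was called by status (limma). At an unadjusted p under 0.05 there were 3 in the actin list, 3 among YAP and TEAD genes, 3 among annexins and partners, 1 among EMT regulators and 0 in the other 4 lists of function, where 9.77% of all genes reached it. Of the marker lists, 2 of 10 colon epithelium markers, 2 leukocyte markers and 1 smooth muscle marker reached it. All 10 colon epithelium markers were below 0, with a median of -1.92 log2, and their part in the differences of the 10 genes was not tested. Of 21 measured actin, contractile and SRF-related genes, 14 differed between lines (67.0% of all genes did), 17 were above 0 (64.3% of all genes were) and the median difference was 0.12 log2. The smallest p among them belonged to ACTA2, a smooth muscle actin, with 7.79 ± 0.42 in MSI and 6.75 ± 0.52 in MSS lines (SD, n = 5 each, limma adjusted p = 0.282). FHL2, an SRF-regulated LIM protein, differed by 1.51 (limma adjusted p = 0.389) and SRF itself by 0.44 (limma adjusted p = 0.400). CNN3 (calponin 3) was at 3.91 in HCC2998 and 4.04 in HT29 and between 8.14 and 11.13 in the other 8 lines. The smooth muscle genes MYH11, CNN1, DES, ACTG2 and LMOD1 did not differ between lines. TPM3, FLNA and FHL1 have no probe set of a single gene here.

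All 14 YAP and TEAD targets and factors differed between lines (67.0% of all genes did). Their difference by status was above 0 for 5 and below for 9 (64.3% of all genes were above 0), with a median of -0.15 log2. CCN1 differed by 2.36 (limma adjusted p = 0.400), YAP1 by -0.62 (limma adjusted p = 0.444) and AJUBA, a LIM protein of this pathway, by -1.09 (limma adjusted p = 0.445). CCN2, another target, was highest in SKCO1 (9.89) and lowest in SW48 (4.71). Of 9 EMT regulators, 7 differed between lines (67.0% of all genes), 7 were above 0 (64.3% of all genes) and the median was 0.22 log2. ZEB1 differed by 2.25 (limma adjusted p = 0.515). RKO was the highest line for ZEB1 (9.57) and for CCN1 (13.12), and neither difference was refitted without it. In the caveolar coat the median was 0.17 log2, with 6 above 0 and 3 below. For the receptor family of AXL it was 0.01 with 3 on each side, and for annexins and partners -0.15 with 6 above and 8 below. For moesin's kin and partners it was 0.40 with 5 above and 3 below, and for focal adhesions 0.12 with 6 above and 4 below.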

How the data were processed

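RNA of 19 cultures was hybridised to Affymetrix arrays, per the labels' protocols. The deposited log2 values were made by the authors with RMA, per the submitters' processing notes. No version of RMA is given in the labels. Values between 2.78 and 14.92 fit a log2 scale. No normalization was added, and arrays give no count or depth. Of 54675 probe sets, 62 controls were left out. Of the other 54613, 41091 name 1 gene, 1801 several and 11721 none here. Each gene is given on its brightest single-gene probe set by the mean over lines, and dim sets were kept.

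Cultures of a line were averaged, and 5 MSI and 5 MSS lines were compared with limma 3.58.1 (lmFit, eBayes, two-sided, Benjamini-Hochberg over all genes, threshold 0.05) in R 4.3.3. A limma F test on the arrays compared lines. The fits were tested on simulated data. The number of lines limits the precision. Genes named are the 10 genes, the 3 others most like each by Pearson's r over lines (SD of at least 1 log2), and lists of known function. These genes and lists were chosen with earlier results of these data known. Promoters were matched by symbol to RefSeq (GRCh38.p14). Alternatives covered the probe set, normalization, filter, test, cultures and single lines.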

Additional observations from a re-analysis of the deposited data

Results flagged for a closer look

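Within the 5 lines of each status, a line was looked for whose gap to the next exceeds Dixon's 95% critical value relative to the range. This was done in 42 groups, from the brightest probe set of each gene and other sets that passed the median of all values and ranged over 2 log2, and 9 groups held such a line. Chance gives about 1 in 20 groups only for sets taken without regard to their range. The sets other than the brightest were taken for their range, so that rate does not hold for them. Sets of the same gene are not independent. Of the lines named below, those for TAGLN and MSN came from brightest sets. Among MSS lines, CACO2 stood alone for CALD1 on 4 sets, at 11.43 log2 on 212077_at (others 3.40 to 3.65), 9.46 on 201616_s_at (4.57 to 4.97), 7.50 on 201615_x_at (5.43 to 5.54) and 9.14 on 201617_x_at (3.37 to 3.52). Among MSI lines, LIM2405 stood alone for CALD1 on 212077_at at 3.82 (others 9.61 to 11.43). LIM2405 was also apart for TAGLN, at 6.66 against 7.15 to 7.31. HT29 was apart for MSN at 10.82, with the other MSS lines at 3.94 to 4.44. RKO was apart for the second AXL set, 202685_s_at, at 10.32 against 6.73 to 7.49. SKCO1 was apart for the second ANXA1 set, 233011_at, at 8.80 against 4.17 to 4.81.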

How the results depend on the processing

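Across 21 alternatives per gene, 201 of 210 differences between MSI and MSS kept their direction and stayed uncalled, and no gene was called in any of them. The smallest adjusted p was 0.0903, for AXL in a limma fit on all arrays. The 9 reversals concern TAGLN, at -0.056 with the mean of its probe sets and -0.25 on the set with the largest interquartile range, and MSN. MSN was at -0.12 with first cultures, and it ranged from -1.02 (without HCT116) to 1.37 (without HT29) when single lines were left out. Its other reversed values were -0.31 without CACO2, -0.23 without HCC2998, -0.10 without LS174T, -0.35 without SKCO1 and -0.27 without T84. The cause was not tested. CALD1 moved from 0.45 to 4.19 with the set of the largest interquartile range. Genes differing between lines numbered 9 or 10 in all alternatives (9 without LIM2405). Within MSS lines they numbered 6 (without HT29) to 10. In the main fit 67.0% of all genes differed between lines and 52.9% within MSS lines. The shares of all genes differing between lines under the alternatives are not given here, so these counts are not set against them. With the culture number as a replicate block, 0 of the 10 genes were called by status and 10 between lines. Over all genes, the count called by status was 304 with the block, 350 on all arrays without it, 9 in the line-mean test, 1 with the equal-variance test, 62 with the set of the largest interquartile range, and 2 (without SW48) to 54 (without LS174T) when single lines were left out. The differences between the cultures of a line correlated between lines at r from -0.21 to 0.27, with 7 of 36 pairs over 0.1, so the numbers were not taken to pair cultures. Values under the median of 5.67 log2 may lie near background, where differences are understated.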
